A study of Mus musculus with 143 samples.

Results

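The keratin genes of 11 mouse tumour models were followed in tumours grown under the skin, where a keratin transcript can come from the tumour line or from the skin of the host. The set holds every gene of the deposited expression table whose Ensembl identifier maps to a mouse symbol made of Krt and a number, which gave 54 genes of 54232 identifiers. There are 28 type I and 26 type II genes, and the GENCODE annotation calls 53 of them protein coding. They lie in 2 clusters of 27, on chromosomes 11 and 15. The values come from total RNA sequencing of subcutaneous tumours and are FPKM, that is, fragments scaled by transcript length and by the number of fragments mapped. Each model contributed 3 untreated baseline tumours, 5 tumours given a mouse IgG1 isotype antibody and 5 given muDX400, an antibody against the T-cell checkpoint receptor PD-1. Antibody was injected 11 and 15 days after implantation, and these tumours were taken on day 19, a time point labelled 8 days. By the labels' class of response to PD-1 blockade, 3 models are High (MC38, MBT2 and CM3), 4 are Partial (RENCA, MB49, EMT6 and CT26) and 4 are Resistant (TC1, LL2, B16F10 and 4T1). Each model is 1 cell line injected as a suspension into the lower flank, so a difference between models is one between these lines together with their hosts and blocks of sample numbers, which cannot be told apart. The sources used here do not give the strain, age or sex of the hosts or the day of the baseline tumours.

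Keratins are the intermediate filament proteins of epithelial cells, and a filament needs a type I and a type II partner. Simple epithelia such as gut, lung, kidney and gland carry Krt8 (type II) with Krt18 (type I), joined in ducts by Krt7 and Krt19. The basal layer of the epidermis carries Krt5 with Krt14, the layers above it Krt1 with Krt10, the wounded epidermis and outer root sheath Krt6 with Krt16 and Krt17, and hair follicles have a further set of their own. Carcinoma lines that have moved towards a mesenchymal state often lose junction genes and some keratins, while vimentin is made by mesenchymal cells and by such lines.

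The promoters of 3 genes are shown because their transcripts set the models apart: Krt8 and Krt18, whose levels went together in most models but not in MBT2, EMT6 and CT26, and Krt20, which was high in only 2 models. Each sequence is the 250 bases before the RefSeq start on the gene's own strand, from the GRCm38.p6 assembly, and capitals mark the motif found. Krt8 is read on the minus strand (chr15:102004343-102004592), Krt18 on the plus strand (chr15:102027966-102028215) and Krt20 on the minus strand (chr11:99438154-99438403).
Krt8: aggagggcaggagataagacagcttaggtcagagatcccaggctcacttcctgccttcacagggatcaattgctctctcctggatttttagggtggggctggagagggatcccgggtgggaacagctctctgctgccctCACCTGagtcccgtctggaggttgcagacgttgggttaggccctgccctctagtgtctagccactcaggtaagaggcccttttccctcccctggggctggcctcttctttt
Krt18: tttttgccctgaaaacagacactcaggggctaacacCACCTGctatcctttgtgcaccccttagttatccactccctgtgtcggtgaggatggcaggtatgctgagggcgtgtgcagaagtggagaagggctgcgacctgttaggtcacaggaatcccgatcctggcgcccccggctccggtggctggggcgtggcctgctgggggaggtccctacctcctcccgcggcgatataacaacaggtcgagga
Krt20: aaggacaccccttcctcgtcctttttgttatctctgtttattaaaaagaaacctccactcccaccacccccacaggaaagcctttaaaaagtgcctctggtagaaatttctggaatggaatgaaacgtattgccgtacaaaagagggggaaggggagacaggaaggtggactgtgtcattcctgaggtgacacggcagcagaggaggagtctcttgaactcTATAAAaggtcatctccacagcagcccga

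Both strands of these windows were searched for the core promoter element TATAAA, for GGGCGG, which Sp1 reads, for TGANTCA, which AP-1 reads, and for CACCTG, the E-box read by ZEB and Snail factors. CACCTG was found 111 bases before the RefSeq start of Krt8 and 214 before that of Krt18. TATAAA was found 29 bases before the RefSeq start of Krt20. There was no other match. Among 32851 mouse promoter windows of the same length, 17.2% hold CACCTG, 12.4% hold TATAAA, 32.7% hold GGGCGG and 6.75% hold TGANTCA, so these matches are descriptions of the letters only. The GC content was 58.0% for Krt8, 60.4% for Krt18 and 48.0% for Krt20, against a median window of 52.4%. Promoter entries existed for 36 of the 54 keratins. Krt8 (ENSMUSG00000049382, chromosome 15, 101996698 to 102004482) and Krt18 (ENSMUSG00000023043, chromosome 15, 102028180 to 102032027) point away from each other with 23698 bases between their 5′ ends in the GRCm38 annotation, and Krt18 is the type I gene that sits in the type II cluster. The 5′ ends of Krt8 and Krt18 in that annotation lie inside the windows printed above, so they differ from the RefSeq starts. The CACCTG of Krt8 falls inside the annotated gene. Krt20 (ENSMUSG00000035775) lies on chromosome 11 from 99428403 to 99438150.

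Estimated depth was 10.1 to 49.5 M fragments per library with a median of 20.7 M, and baseline tumours of TC1, RENCA and B16F10 were sequenced deepest. The tumours are bulk tissue, so fewer cells of a type and less keratin RNA per cell cannot be told apart. The labels do not say how far the libraries of a group are separate animals beyond their separate names, so p-values measure the spread between these samples. Pigment genes such as Pmel were high in B16F10 (3566 FPKM in isotype libraries) and CM3 (1814), and at most 0.568 in the other 9 models. Some keratins have 50-base windows in common with another gene, and fragments from these can be divided wrongly between the copies. The share of such windows was, among the keratins described here, highest for Krt8 (26.9%, with the pseudogene Krt8-ps, itself at 4.20 FPKM at most), Krt16 (37.6%, with Gm11597), Krt14 (13.9%, with Krt16), Krt87 (36.9%) and the Krt6a and Krt6b pair (45.7% and 50.1%).

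Most of the keratin family was silent in these tumours. No library reached 1 FPKM for 32 of the 54 genes, and 17 had a mean of at least 1 FPKM in at least 1 group of model and arm. Krt19 and Krt80 were above 0 in every library. The 54 genes summed to between 7.32 and 2051 FPKM per library with a median of 131, and the simple keratins made up most of the high sums. The 8 inner root sheath keratins never exceeded 1.28 FPKM (Krt27 in MB49 baseline replicate 2). Among the 15 hair shaft keratins, Krt87 reached 1.94 FPKM (B16F10 isotype replicate 5) and the other 14 at most 0.429.

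**Figure D1:**
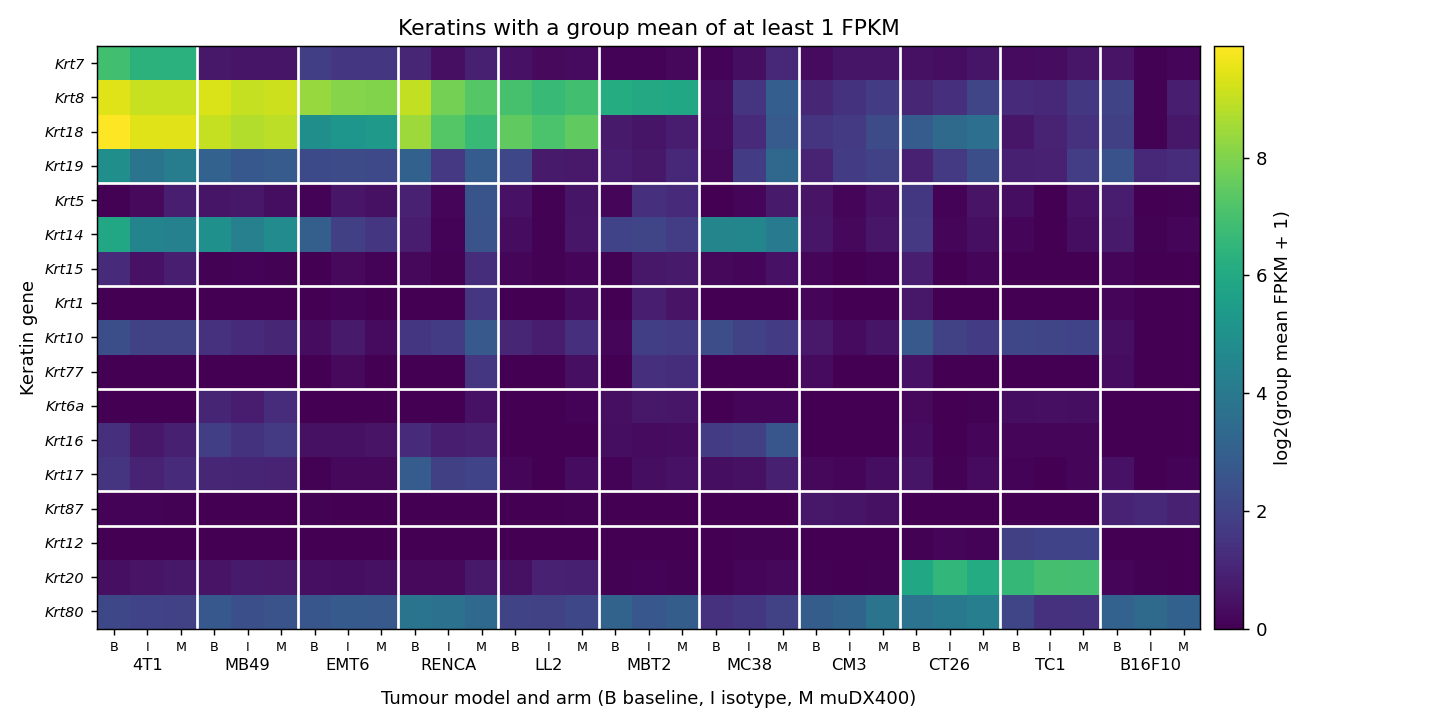
Mean expression of the 17 keratins that reached 1 FPKM in at least 1 group, as log2(group mean FPKM + 1), for each model and arm (B baseline, I isotype, M muDX400); white lines divide the keratin groups and the models. The rows of Krt8 and Krt18 are bright in 4T1, MB49, RENCA and LL2, Krt20 in CT26 and TC1, and Krt14 in 4T1, MB49 and MC38.

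Krt8 and Krt18, the simple epithelial pair, divided the models into a high and a low set. In isotype libraries Krt8 was 539 ± 32.5 FPKM (SD, n = 5) in 4T1 and 524 ± 66.7 in MB49. The 4T1 libraries were 538, 551, 496, 526 and 584 FPKM and the MB49 libraries 492, 622, 551, 507 and 446, so the top 2 models overlapped. EMT6 followed with 276 ± 28.9 and RENCA with 226 ± 83.3, which also overlapped, then LL2 with 103 ± 13.9 and MBT2 with 61.9 ± 4.66. Every isotype library of these 6 models held at least 56.2 FPKM. The other 5 models lay far below: MC38 at 1.86 ± 3.11, CM3 at 1.75 ± 1.58, CT26 at 1.49 ± 2.09, TC1 at 1.16 ± 0.408 and B16F10 at 0.0431 ± 0.0294. The libraries of MC38, CM3, CT26 and TC1 overlapped along that order, and B16F10 lay below all 5 libraries of TC1.

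Krt18 gave a different order. It was 687 ± 71.7 FPKM in 4T1 isotype libraries (n = 5), 436 ± 40.8 in MB49, 156 ± 63.3 in RENCA and 136 ± 13 in LL2, and RENCA and LL2 overlapped. EMT6, with the next highest Krt8 after MB49, had 35.3 ± 8.81, and CT26, among the lowest for Krt8, had 9.86 ± 4.08. CM3 (2.22 ± 1.75), MC38 (1.33 ± 2.04), TC1 (0.903 ± 0.281) and MBT2 (0.481 ± 0.571) overlapped with their neighbours, and B16F10 had 0.053 ± 0.0776.

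The ratio of Krt8 to Krt18 kept to a narrow range in 4 lines and departed far from 1 in 3 others. Over the 13 libraries of a model it ran from 0.688 to 0.809 in 4T1 (median 0.768), from 0.564 to 0.814 in LL2, from 1.04 to 1.25 in MB49 and from 1.34 to 1.59 in RENCA. The 4T1 and MB49 ranges did not meet although both models held much of each gene, the lowest isotype library being at 390 FPKM. EMT6 had 5.13 to 11.9 with a median of 7.81. MBT2 stood apart, with 52.1 to 78.2 FPKM of Krt8 in all 13 libraries and at most 1.43 of Krt18, a median ratio of 142.9 over the 12 libraries with Krt18 above 0. CT26 leaned the other way with 0.0133 to 0.608. Summed over all members, type I keratins were 0.0678 of type II in the median MBT2 library, 0.147 in EMT6, 0.88 in MB49 and 1.19 in 4T1, and 27.2 in TC1.

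**Figure D2:**
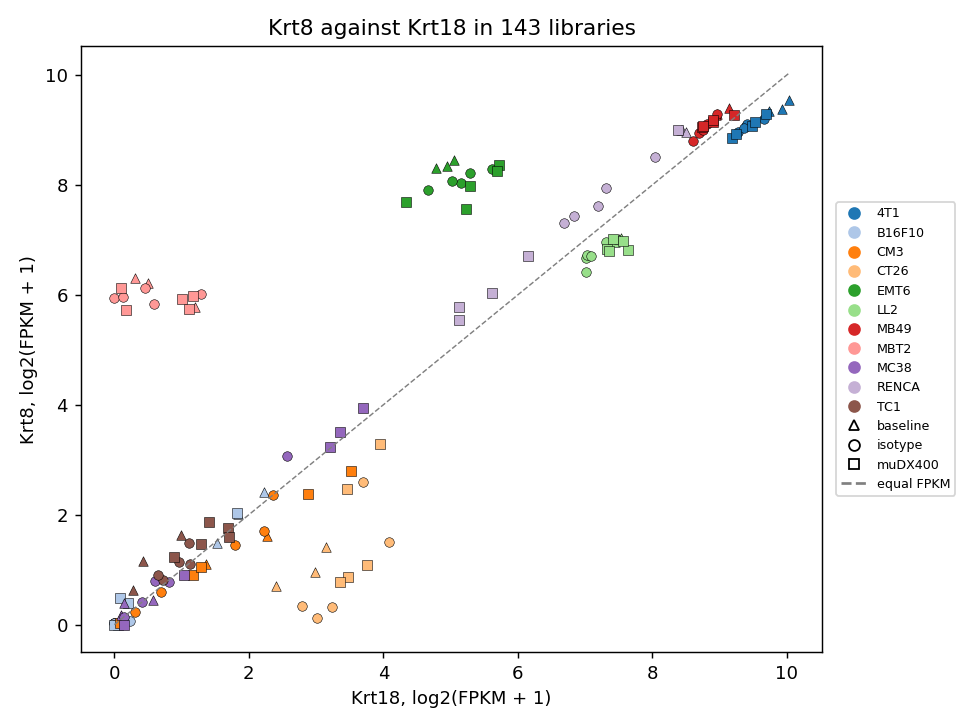
Krt8 against Krt18 in all libraries, both as log2(FPKM + 1), coloured by model and shaped by arm; the dashed line marks equal FPKM. The MBT2 libraries hold Krt8 with Krt18 at most 1.43 FPKM, EMT6 lies above the line, CT26 below it, and 4T1, MB49, RENCA and LL2 lie close to it.

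Krt7, a duct keratin, was high in isotype libraries of 4T1 alone, at 82.1 ± 15.2 FPKM (63.0, 86.4, 75.0, 81.7 and 104), with EMT6 at 1.99 ± 0.674 and the other 9 models at most 0.483. Krt19, the small type I keratin of ducts, was 12.9 ± 2.30 in 4T1, above every isotype library of the other models. MB49 had 5.53 ± 2.51, EMT6 3.80 ± 2.12 and the remaining 8 models 0.548 to 2.36, each overlapping its neighbour. So 4T1, a mammary carcinoma line, was the only model with all 4 simple keratins above 10 FPKM in its isotype mean.

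High Krt8 did not come with the other epithelial genes in most models. Epcam, an epithelial surface adhesion protein, was 169 FPKM in 4T1 isotype libraries and between 0.111 and 1.75 in MB49, EMT6, RENCA, LL2 and MBT2, the other models with high Krt8. Cdh1, the adherens junction cadherin, was 51.7 in 4T1 and at most 3.16 elsewhere. The tight junction genes Cldn3 and Cldn4 were 62.0 and 19.5 in RENCA and 37.1 and 140 in 4T1, and Cldn3 was 18 in MB49. Vim, the mesenchymal intermediate filament, lay between 789 and 3559 FPKM in all 11 models, bulk tumours in which stroma also makes it.

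Each model was then compared with the mean of the other 10 in the 55 isotype libraries, by limma on log2(FPKM + 1), adjusted over all genes. Of 121 pairs of keratin and model tested, 102 passed an adjusted p of 0.05, 35 higher and 67 lower. Over all genes 62.9% of pairs passed in this comparison of different cell lines, 29.3% higher and 33.6% lower. The keratin count includes Krt12, which met the minimum of 1 FPKM only through TC1, and Krt17, which did so only with RENCA. Their direction in that model was fixed by the filter, so the counts are a description. For the simple keratins 38 of 44 pairs passed. In 4T1 the log2 difference was 5.92 ± 0.12 (SE) for Krt7, 5.88 ± 0.23 for Krt18 and 4.87 ± 0.26 for Krt8. MBT2 was higher for Krt8 by 1.46 ± 0.26 (adjusted p = 3.59e-06) and lower for Krt18 by a difference of -3.94 ± 0.23. CT26 was lower for both, with -4.03 ± 0.26 for Krt8 and -0.79 ± 0.23 for Krt18. B16F10, a melanoma line, was the lowest for both, with -5.04 ± 0.26 and -4.41 ± 0.23.

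By Pearson correlation over the 11 isotype means, the 8 genes most like Krt8 among 15997 were Gm36026 (0.96), Ssh3 (0.93), Wfdc2 (0.92), Pstpip1 (0.92), Zfp296 (0.90), Cxcl2 (0.88), Gm20521 (0.88) and Slc26a10 (0.88). With 11 points and so many genes these values are a description. Krt18 had 0.84, Krt19 0.57 and Krt7 0.48. Among the lists, the epithelial genes had 0.32 to 0.78, highest for the transcription factor Elf3, with Epcam at 0.43. The desmosome and plakin partners had -0.12 (Pkp1) to 0.77 (Ppl, a plakin that links keratin filaments to junctions). The mesenchymal genes went both ways, from -0.72 for Cdh2 to 0.32 for Fn1.

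Krt20, a type I keratin of intestinal and bladder lining, marked TC1 and CT26. TC1 isotype libraries held 150, 135, 150, 79.1 and 119 FPKM (127 ± 29.5) and CT26 libraries 95.8, 87.5, 97.8, 104 and 75.3 (92.0 ± 11.1), and the 2 models overlapped. No other model had an isotype mean above 0.894. In the comparison with the other 10 models the log2 difference was 6.0 ± 0.10 in TC1 and 5.53 ± 0.10 in CT26. Neither model had a type II keratin near that level, and the median CT26 library held 5.16 times as much type I as type II keratin. Krt12, the type I keratin of the cornea, was 3.03 ± 0.477 FPKM in TC1 and at most 0.1925 in any library of another model. It met the minimum of 1 FPKM only through TC1, which fixed the direction, so no test result is given. Krt80, a type II keratin, was present in all models, from 1.65 ± 0.245 in TC1 to 15.2 ± 1.64 in CT26.

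Krt14 was high without its basal partner Krt5 in 3 models. In isotype libraries Krt14 was 27.0, 15.2, 34.8, 13.2 and 21.5 FPKM in MC38, 11.5, 29.5, 16.9, 24.1 and 22.5 in 4T1, and 17.1, 26.3, 15.6, 24.2 and 10.3 in MB49. These 3 models overlapped and had means of 22.4, 20.9 and 18.7. MBT2 (3.15 ± 2.66) and EMT6 (2.68 ± 0.523) followed, and the other 6 were at most 0.152. Krt5 means in MC38, 4T1 and MB49 were 0.136, 0.193 and 0.567. The median ratio of Krt14 to Krt5 was 215 in MC38 (10 libraries with Krt5 above 0), 130 in 4T1 (12) and 51.8 in MB49 (13). Against the mean of the other 10 models, Krt14 was higher in MC38 by 3.17 ± 0.17 on the log2 scale. Krt16, with which Krt14 has windows in common, was at most 2.68 FPKM in isotype means.

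**Figure D3:**
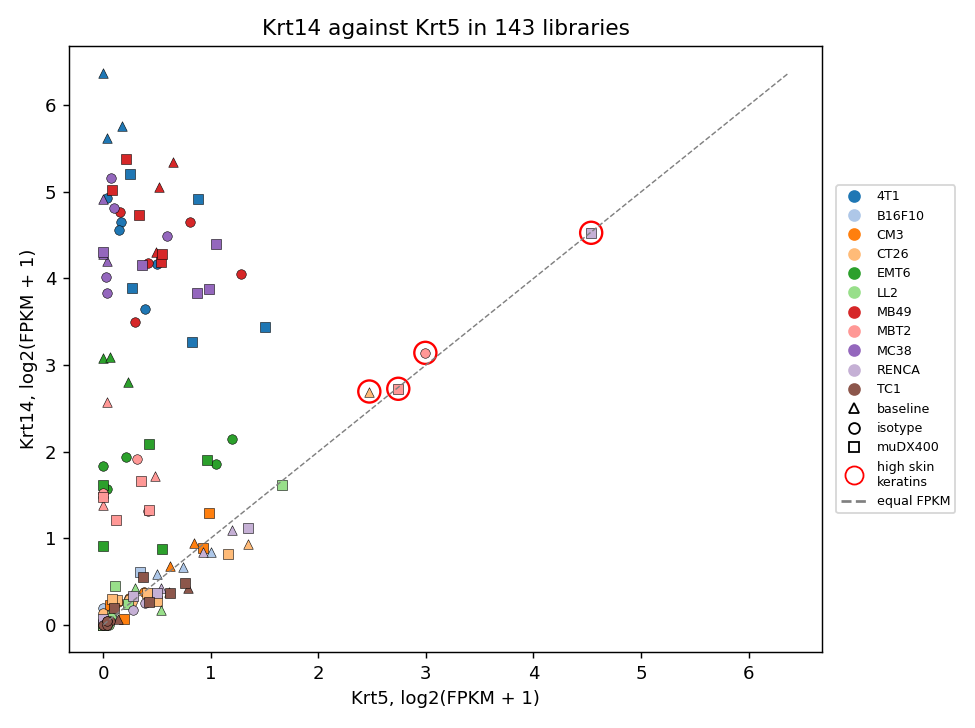
Krt14 against Krt5 in all libraries, both as log2(FPKM + 1), coloured by model and shaped by arm; the dashed line marks equal FPKM and red rings mark the 4 libraries named for high skin keratins. The ringed libraries lie on or near the line, while the MC38, 4T1 and MB49 libraries hold Krt14 with little Krt5.

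Among the keratins of activated epidermis and outer root sheath, Krt16 reached 2.68 FPKM in MC38 and 1.72 in MB49 isotype libraries, and Krt17 reached 2.66 in RENCA. Krt10, the type I keratin of differentiating epidermis, was 2.73 in 4T1, 2.75 in MC38, 2.87 in CT26 and 3.19 in TC1, whereas its type II partner Krt1 was at or near 0 in most libraries. Krt1 was above 0 in 26 libraries and at least 0.1 FPKM in 9. All 9 also had at least 0.1 FPKM of Krt77, another type II keratin of the differentiating epidermis, which 10 libraries reached. Low Krt10 without Krt1 was thus common to many libraries. Krt87 was 1.22 ± 0.66 in B16F10, a level that is uncertain because of the windows it shares with Gm49425.

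Single libraries carried the keratins of differentiated skin. A library was named when its sum over the differentiation, inner root sheath and hair shaft keratins was at least 4 times the median of the other 12 libraries of its model and at least 10 FPKM above it. The rule named 4 libraries of the whole series, 3 when the sum had to be 8 times the median, which left out the CT26 library. Applied to the sum of non-keratin skin genes it named 0. RENCA muDX400 replicate 5 held 45.0 FPKM against a median of 2.41, MBT2 isotype replicate 2 held 25.0 and MBT2 muDX400 replicate 1 held 21.98 against 0.316, and CT26 baseline replicate 3 held 13.8 against 3.03. Just outside the rule were LL2 muDX400 replicate 5 with 8.28 against 1.13 and EMT6 isotype replicate 3 with 3.64 against 0.468. All 4 named libraries had Krt14 and Krt5 near equal, with ratios between 0.986 and 1.2, unlike the Krt14-high models. Near-equal values were not particular to them. Over libraries with Krt5 above 0, the median ratio was 0.761 in RENCA and 0.979 in CT26, but 5.79 in MBT2. It was 1.04 in B16F10, 1.15 in LL2 and 1.29 in CM3, models with little of either gene.

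**Figure D4:**
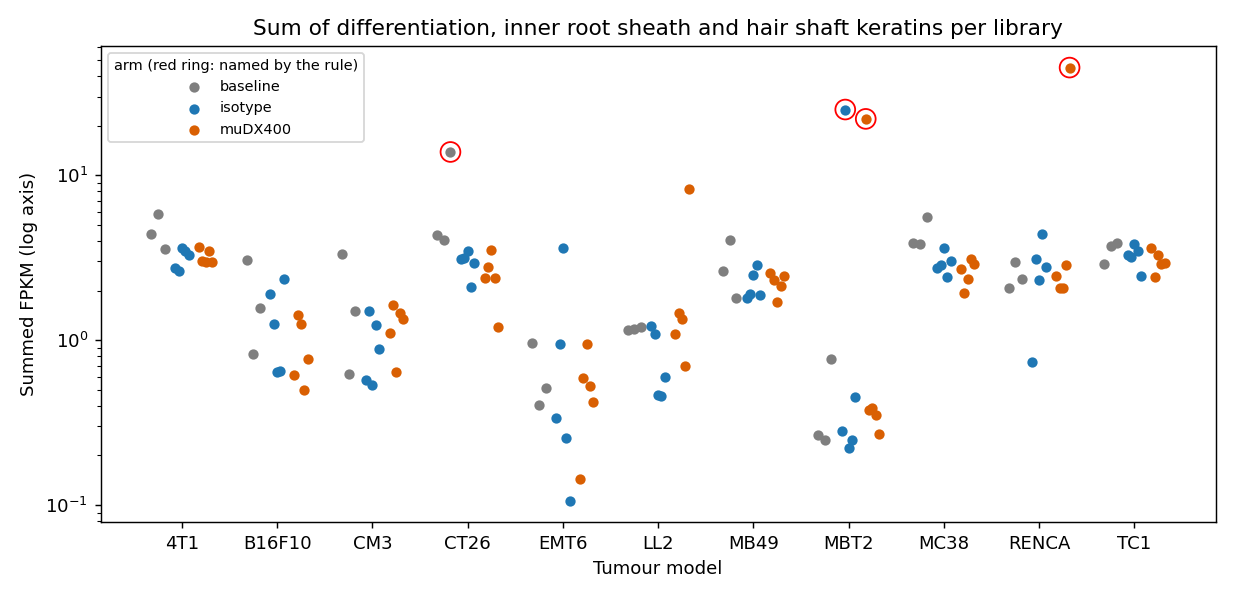
Summed FPKM of the differentiation, inner root sheath and hair shaft keratins in each library, on a log axis, by model and arm. Red rings mark the 4 libraries named by the rule, at 45.0 FPKM in RENCA, 25.0 and 21.98 in MBT2 and 13.8 in CT26.

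In RENCA muDX400 replicate 5 the basal pair Krt5 and Krt14 stood at 22.2 and 22.1 FPKM, where the other 12 RENCA libraries had at most 1.54 and 1.17. The suprabasal pair Krt1 and Krt10 stood at 9.77 and 21.9, against at most 0.0242 and 3.98. Some non-keratin genes of the epidermis were high there too: Lor, the main protein of the cornified envelope, was 16 against at most 0.0625, and 10 of 12 epidermal genes were above all other RENCA libraries, as were 3.84% of all genes. The same held for 1 of 10 hair follicle genes and 3 of 6 sebaceous gland genes. Krt8 was 45.5 FPKM in this library, the lowest of the 13. Its muscle gene sum was 334 FPKM (4.73 to 1064 in the other 12) and its adipocyte sum 135 (24.2 to 1465), neither outside the range of the model. The part that these tissues have in the keratin values was not tested.

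The MBT2 pair had smaller amounts of the same genes. Krt5, Krt14, Krt1 and Krt10 were 6.97, 7.82, 3.81 and 12.4 FPKM in isotype replicate 2 and 5.69, 5.61, 2.22 and 11.2 in muDX400 replicate 1. Krt77 was 7.77 and 7.16, and Lor 6.15 and 6.04. Epidermal genes above all 12 other libraries of the model numbered 6 and 5 of 12, where 6.82% and 8.2% of all genes did so, a count that each library lowers for the other. Their muscle sums were 28.1 and 41.1 FPKM, within the range of the model. The adipocyte sum was 64.0 in the first and 163 in the second, the highest of the model, where the others had at most 131, and its part was not tested. In CT26 baseline replicate 3, Krt5, Krt14, Krt1 and Krt10 were 4.55, 5.47, 1.39 and 9.94, and 8 of 12 epidermal genes were above all other CT26 libraries, as were 21.6% of all genes. The muscle sum in this library was 78.3 FPKM against at most 21.9 in the others and the adipocyte sum 1357 against at most 219, and their part in the keratin values was not tested.

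The composition of the added keratin varied between these libraries. The Krt5 excess over the median of the model was 111% of the Krt10 excess in RENCA, 55.2% and 49.8% in the MBT2 libraries and 63.3% in CT26. The Krt1 excess was 49.3%, 30.9%, 20.02% and 19.8% of it. The hair keratins took little part in any of them, as the maxima of both hair lists given above show. Summed over an arm, the RENCA muDX400 libraries had 10.9 ± 19.1 FPKM (n = 5) of skin keratins, with 4 of the 5 between 2.07 and 2.85, and the MBT2 isotype libraries 5.25 ± 11.1.

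When each group mean of model and arm was subtracted, the genes that followed the skin keratin sum most closely across all libraries were Lor (r = 0.91), Dmkn (0.72), Asprv1 (0.67), Crct1 (0.64), Dsp (0.63), Elovl4 (0.61), Perp (0.61) and Pkp1 (0.59), of 15963 genes. Lor, Crct1 and Asprv1 belong to the outer epidermis, and Dsp, Perp and Pkp1 to desmosomes, the junctions that hold keratin filaments. Without the 4 named libraries the values were 0.70 for Lor, 0.38 for Dmkn and Crct1, 0.31 for Asprv1, 0.24 for Elovl4, 0.17 for Perp, 0.10 for Dsp and 0.09 for Pkp1, so for most of them the likeness rested on those libraries.

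Isotype-treated tumours were compared with untreated baseline tumours of the same model, a contrast in which antibody injection differs and the day of the baseline tumours is not known. Keratins that passed were mostly lower in isotype tumours, but most pairs did not pass: of 64 pairs of gene and model tested, 16 passed as lower and 1 as higher. Over all genes 13.9% of pairs passed, 9.58% lower and 4.3% higher. The simple keratins gave 10 of 30 pairs, all lower. The median keratin difference was above 0 in CM3 (0.28), CT26 (0.31), MC38 (0.11) and TC1 (0.03). Baseline and isotype libraries carry sample numbers from different blocks except in B16F10 and RENCA, which hold 5 of the 17 calls, so this contrast and the block cannot be told apart in the other models. Some of the calls were members that passed the minimum of 1 FPKM only through their baseline libraries and so had to differ between the groups. They were Krt8 and Krt18 in B16F10, Krt19 in LL2, and Krt16 and Krt17 in 4T1. Their values are given without p, and without these 5 there were 12 calls, 11 of them lower, 7 from the simple keratins.

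The most keratin calls were in 4T1, with 7 of 9 tested genes lower, 5 of them besides Krt16 and Krt17, against 10.7% of all genes lower in that model. Krt14 went from 48.1, 81.6 and 53.2 FPKM at baseline to 11.5, 29.5, 16.9, 24.1 and 22.5, a log2 difference of -1.53 ± 0.27 (adjusted p = 0.00567), and the groups did not overlap. Krt19 had -1.08 ± 0.25 (adjusted p = 0.0183). Krt18 fell from 952 to 687 FPKM (-0.47 ± 0.12, adjusted p = 0.0243), Krt8 from 686 to 539 (-0.35 ± 0.09, adjusted p = 0.0350) and Krt7 from 117 to 82.1 (-0.52, adjusted p = 0.0476, with overlap). Of 16 other epithelial genes 4 were lower and 12 did not pass. The adipocyte gene sum went the other way, from 12.6 to 39.2 FPKM at baseline to 228 to 399 in isotype libraries with no overlap, and its part in the keratin values was not tested. Krt14 passed in all 8 fits that left out 1 library.

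The other 4T1 calls depended on single libraries. Over the 8 fits, Krt19 passed in 7, Krt18 in 4, and Krt8 and Krt7 in 2 each. Without baseline replicate 2 the adjusted p was 0.0977 for Krt19, 0.122 for Krt18, 0.167 for Krt8 and 0.194 for Krt7. Without baseline replicate 1 it was 0.0896 for Krt18, 0.0910 for Krt8 and 0.153 for Krt7. Leaving out isotype replicate 3 or 4 also ended the call for Krt18 (0.0631 and 0.0679), Krt8 (0.0886 and 0.0955) and Krt7 (0.0962 and 0.0929), and replicate 1 or 2 those of Krt8 (0.0644 and 0.0537) and Krt7 (0.0759 and 0.0650). Across all 13 alternatives the adjusted p ran from 0.00126 to 0.0977 for Krt19, 0.00511 to 0.155 for Krt18, 0.0110 to 0.253 for Krt8 and 0.0137 to 0.194 for Krt7.

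In RENCA, a renal carcinoma line, Krt8 and Krt18 were lower in every isotype library than in any baseline library. Krt8 was 507, 512 and 499 FPKM at baseline and 363, 173, 245, 157 and 194 in isotype libraries, -1.23 ± 0.25 on the log2 scale (adjusted p = 0.0163). Krt18 went from 351 ± 8.70 to 156 ± 63.3 (-1.25 ± 0.27, adjusted p = 0.0199) and Krt17 from 6.42 to 2.66 (-1.07 ± 0.29, adjusted p = 0.0470). None of the 3 overlapped, and 3 of 7 keratins were lower against 8.25% of all genes. Other epithelial genes of the list moved the same way, with 5 of 9 lower, among them Epcam (-1.10) and Cldn4 (-0.98). The median log2 difference was -1.07 over the keratins tested and -0.17 over all genes. The adipocyte sum was 265 to 1465 FPKM at baseline and 24.2 to 299 in isotype libraries, and the basal keratin sum 0.800 to 2.59 and 0 to 0.567. Their part in the Krt8 and Krt18 values was not tested.

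With 3 baseline libraries the RENCA calls were fragile. Leaving out baseline replicate 1, 2 or 3 gave adjusted p = 0.102, 0.0947 and 0.0874 for Krt8 and 0.111, 0.103 and 0.104 for Krt18, with log2 differences that stayed at or beyond -1.22, and leaving out isotype replicate 5 gave 0.0509 for Krt18. Scaling each library by its median ratio gave 0.0596 and 0.0687. Over the 13 alternatives the adjusted p ran from 0.00160 to 0.102 for Krt8 and from 0.00160 to 0.111 for Krt18. Krt17 passed in 1 of the 8 fits that left out a library, without isotype replicate 1, and its adjusted p ran from 0.00450 to 0.226. Baseline libraries of RENCA were deeper (40.3 to 45.2 M fragments) than isotype libraries (16.4 to 19.3 M).

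In B16F10, Krt8 and Krt18 were present at baseline and near 0 in isotype libraries. Krt8 was 1.79, 3.03 and 4.33 FPKM at baseline and 0.0233, 0.0503, 0.0246, 0.0918 and 0.0256 in isotype libraries (a log2 difference of -1.91). Krt18 was 1.89, 2.56 and 3.67, then 0, 0.171, 0, 0.0938 and 0 (-1.79). Their direction was fixed by the filter, so nothing is read from the background of 0.924% of all genes lower. Krt19 was 2.998, 6.02 and 5.004 FPKM at baseline and 1.45, 0.593, 0.886, 0.164 and 2.74 with isotype. It did not pass in the main fit, and it too met the minimum of 1 FPKM only through its baseline libraries, so no p is given. With a pseudocount of 0.1 the log2 differences were -4.40 for Krt8 and -4.28 for Krt18, and without any 1 baseline library both genes missed the minimum of 1 FPKM and were not tested. Epcam followed the same split, at 0.353 to 0.587 FPKM at baseline and listed at 0 in all 5 isotype libraries, and so did the adipocyte sum, with 294 to 377 FPKM against 12.5 to 102. Baseline libraries were also the deeper ones (35.9 to 49.5 M fragments against 10.1 to 22.6 M), and the part of these differences in the keratin values was not tested.

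Other calls were spread over 4 models, and each given with a p passed in all 13 alternatives. In EMT6 Krt14 fell from 5.99, 7.48 and 7.56 FPKM to 1.97, 2.82, 3.42, 2.61 and 2.55 (-1.13 ± 0.13, adjusted p = 0.00155, range 0.00143 to 0.0159), 1 of 6 keratins lower against 7.69% of all genes. In LL2 Krt18 fell from 180 to 136 FPKM (-0.41 ± 0.08, adjusted p = 0.00544), where 15.8% of all genes were lower, and Krt19 was 3.46 at baseline and 0.651 with isotype. The adipocyte sum went from 11.4 to 59.1 FPKM at baseline to 126 to 1435 with isotype in EMT6, and from 118 to 228 down to 8.97 to 77.5 in LL2, neither with overlap. In LL2 the basal keratin sum also went from 0.671 to 0.858 down to 0.0394 to 0.187, and the part of these tissues was not tested. TC1 had Krt80 lower, from 3.22 to 1.65 (-0.67 ± 0.10, adjusted p = 6.91e-04), 1 of 6 lower against 27.1% of all genes. The single rise was Krt20 in CT26, from 60.9, 48.7 and 66.6 FPKM to 95.8, 87.5, 97.8, 104 and 75.3 (0.64 ± 0.13, adjusted p = 0.00695), with no overlap, and 1 of 6 keratins was higher against 4.4% of all genes. No keratin passed in CM3, MB49, MBT2 or MC38, where 0.374%, 1.89%, 22.4% and 3.25% of all genes did. Over the 11 models, the other epithelial genes had 12 of 57 pairs lower and 0 higher, the desmosome and plakin partners 9 lower and 2 higher of 61, and the mesenchymal genes 10 higher and 1 lower of 73.

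**Figure D5:**
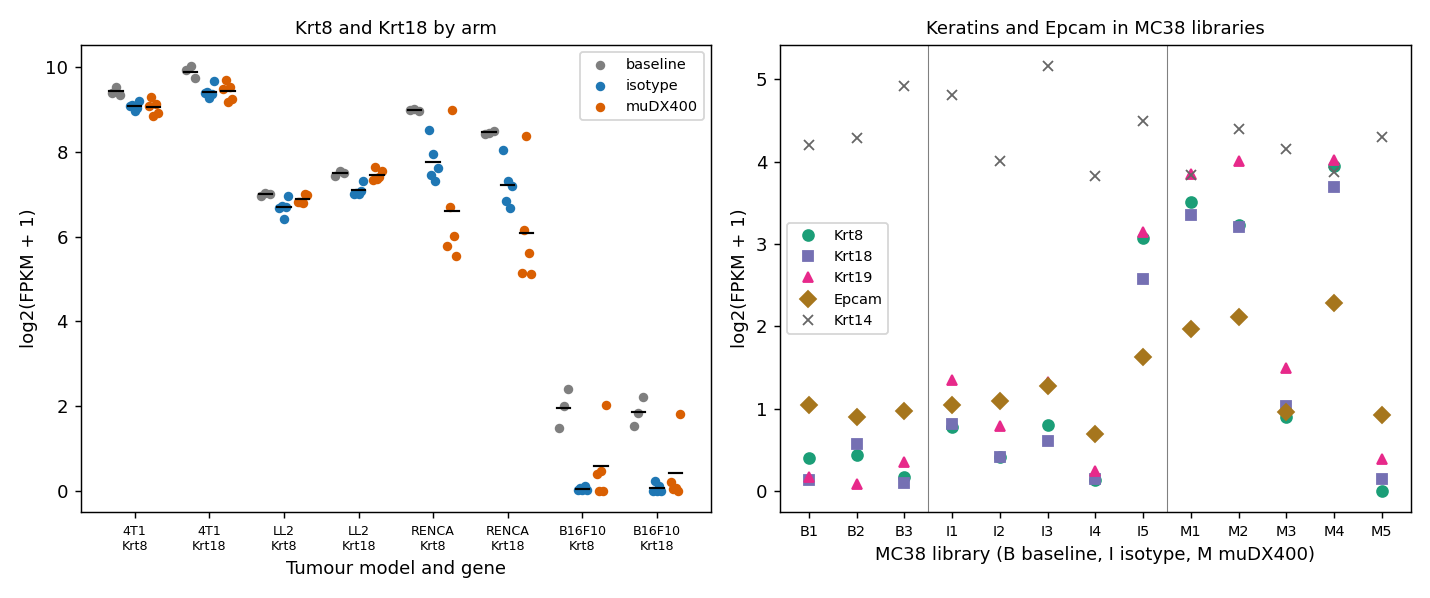
Left, Krt8 and Krt18 by arm in 4T1, LL2, RENCA and B16F10 as log2(FPKM + 1), a point per library and a bar at each arm's mean. Right, keratins and Epcam in the 13 MC38 libraries on the same scale; Krt8, Krt18 and Krt19 are high together in muDX400 replicates 1, 2 and 4 and isotype replicate 5, while Krt14 stays between 13.2 and 34.8 FPKM.

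The comparison of muDX400 with isotype antibody asks which keratins differ after PD-1 blockade within a model. Of 59 pairs of gene and model 1 passed, against 2.82% of all pairs. No gene of any kind passed in 4T1, B16F10, CM3, EMT6, LL2, MB49 or MBT2, and 3482 of the 3858 calls over all genes were in MC38. The low count is therefore not particular to the keratins. The keratin call was Krt16 in MC38, a keratin of activated epidermis (ENSMUSG00000053797, chromosome 11, 100246091 to 100248902). It was 2.48, 1.64, 4.59, 2.55 and 2.12 FPKM with isotype and 4.69, 7.44, 5.11, 3.97 and 5.38 with muDX400, 0.81 ± 0.20 higher on the log2 scale (adjusted p = 0.0137). The groups overlapped through isotype replicate 3 and muDX400 replicate 4. It passed in all 16 alternatives, with adjusted p from 2.89e-05 to 0.0398, and 1 of 6 keratins tested in MC38 passed where 27.3% of all genes did. Krt14, which has windows in common with Krt16, was 22.4 ± 8.85 with isotype and 16.5 ± 3.04 with muDX400.

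In MC38 the simple keratins varied widely between libraries of 1 arm. Krt8 was 10.4, 8.41, 0.868, 14.4 and 0 FPKM with muDX400 and 0.719, 0.328, 0.744, 0.102 and 7.40 with isotype, so 3 of 5 against 1 of 5 libraries held over 7 FPKM. Krt18 (9.21, 8.21, 1.05, 11.9 and 0.105 with muDX400) and Krt19 (13.4, 15.1, 1.83, 15.3 and 0.306) were high in the same libraries. Epcam was also highest in these 3, at 2.90, 3.33 and 3.88 FPKM against 0.948 and 0.890, and in muDX400 replicate 4, 14 of 16 epithelial genes exceeded the 10 libraries outside the top 3 for Krt8, as did 8.87% of all genes above 0 in the model. By the test of muDX400 against isotype in MC38, 4 of 5 tested epithelial genes and 2 of 5 tested desmosome and plakin partners passed as higher. Over all genes 1864 of 12775 did. Only 5 of the 16 epithelial genes and 5 of the 9 partners met the minimum of 1 FPKM, and the others were not tested. Krt1 was at most 0.0171 FPKM in MC38, and Krt5 was 0.829, 1.06, 0.279, 0.978 and 0 in the muDX400 libraries. The adipocyte sum was 1206, 966, 934, 715 and 57.6 FPKM with muDX400 and 18.2 to 179 with isotype, and its part was not tested. Without muDX400 replicate 5, Krt18, Krt19 and Krt80 passed in this model with adjusted p = 0.0297, 0.0346 and 0.0204, and over their alternatives the range was 0.0105 to 0.294, 0.0346 to 0.365 and 0.0204 to 0.134. Replicate 5 was the only isotype library with Krt18 at 1 FPKM or more. Krt18 thus met the minimum mainly through muDX400 libraries, which favoured a higher value, so its p within MC38 is a description. With a spread shared over all models, Krt7 (adjusted p = 0.00896), Krt18 (0.0105), Krt8 (0.0287) and Krt19 (0.0422) passed as higher. These p-values rest on a spread taken from all models and do not measure the wide spread within MC38. In the fit of MC38 alone, Krt18 and Krt19 did not pass, and Krt7 and Krt8 missed the minimum of 1 FPKM and were not tested.

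CM3 and CT26, also low in Krt8, each had a library with several epithelial genes high together, chosen here after their values were seen. In CM3 muDX400 replicate 2, Krt8 (5.92 FPKM), Krt18, Krt19 and Epcam were all the highest of the 13 libraries. There 12 of 16 epithelial genes exceeded the 10 libraries outside the top 3, against 9.66% of all genes. In CT26 muDX400 replicate 1 Krt8 was 8.75 FPKM and 14 of 16 did, against 9.11% of all genes.

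In FPKM, Krt8 was most widely spread under muDX400 in RENCA. Krt8 was 54.0, 104, 507, 64.1 and 45.5 FPKM, against 363, 173, 245, 157 and 194 with isotype, so 4 of 5 muDX400 libraries lay below all isotype libraries and 1 above all of them. The log2 difference was -1.15 ± 0.56 (adjusted p = 0.377) for Krt8 and -1.13 ± 0.54 (adjusted p = 0.377) for Krt18. Without muDX400 replicate 3 the values were -1.75 (adjusted p = 0.00587) and -1.71 (adjusted p = 0.00767), and over 16 alternatives the adjusted p ran from 0.00587 to 0.658 and from 0.00767 to 0.664. Among the 4 low libraries is replicate 5, the one with skin keratins.

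Some pairs separated without passing, and in CM3 and LL2 no gene of any kind passed in the main fit. Krt80 in CM3 was 8.01 ± 1.49 FPKM with isotype and 13.1 ± 2.16 with muDX400 (0.65 ± 0.15, adjusted p = 0.179) with no overlap, and passed without isotype replicate 4 (adjusted p = 0.0158, range over alternatives 2.96e-04 to 0.361). Krt19 in TC1 was 0.878 ± 0.218 with isotype and 2.45 ± 0.80 with muDX400, also with no overlap, and did not pass in the main fit. It met the minimum of 1 FPKM only through its muDX400 libraries, which fixed the direction, so no p is given. Krt18 in LL2 was 136 ± 13 and 175 ± 16.4 (0.37, adjusted p = 0.266), and Krt20 in CT26 was 92.0 ± 11.1 and 67.9 ± 12 (-0.44, adjusted p = 0.127).

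Averaged over the 11 models, with all muDX400 and isotype libraries in the fit, 1 of 15 keratins passed, where 23.1% of all genes did. It was Krt16 at 0.12 ± 0.05 (adjusted p = 0.0436), with Krt19 at 0.41 (0.0538), Krt5 at 0.30 (0.0570) and Krt7 at 0.15 (0.0669) close behind. Without the 4 named skin libraries Krt5 (0.00883), Krt19 (0.0382) and Krt7 (0.0435) passed and Krt16 did not (0.0690). Over all 15 alternatives the adjusted p ran from 0.0201 to 0.186 for Krt16, 0.0269 to 0.177 for Krt19, 0.00883 to 0.135 for Krt5 and 0.0166 to 0.177 for Krt7. The effect differed among models for Krt80 (F-test, adjusted p = 0.00497) and Krt16 (adjusted p = 0.0359), 2 of 15 keratins against 32.4% of all genes.

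Keratin levels showed no detectable trend with response class. With the model as the replicate (4 Resistant, 4 Partial and 3 High, scored 0, 1 and 2), 0 of 6 keratins passed by limma and 0.0% of 13589 genes did. Over all genes 640 had an unadjusted p under 0.05, and the lowest unadjusted p of a keratin was 0.208 for Krt18. Each class mixed high and low lines: Krt8 was 539 FPKM in 4T1 and 0.0431 in B16F10, both Resistant, and 61.9 in MBT2 and 1.75 in CM3, both High.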

How the data were processed

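The authors deposited FPKM values for 54232 gene identifiers in 143 libraries, of which 54079 map to a symbol. Per the labels' protocols, ribosome-depleted stranded libraries of total RNA were sequenced as 50 base paired-end reads. The sources used here do not name the aligner, quantifier, genome build or annotation. Of the table's columns, 0 columns went unused. Depth was estimated from the smallest step between low values, and it limits values below about 0.1 FPKM.

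Tests were run with limma 3.58.1 in R 4.3.3 on log2(FPKM + 1), 2-sided with an intensity trend, adjusted by Benjamini-Hochberg over all genes, with a threshold of 0.05. Log2 differences are on this scale and understate changes of low genes. Genes entered with 1 FPKM or more in 5 libraries of the fit, or 3 against baseline. The members, lists, tests and alternatives were chosen with earlier results of these data known. Genes were named by rule: the 4 simple keratins, keratins with a group mean of at least 1 FPKM, those that passed a test, and the 8 closest genes. Alternatives were another pseudocount (0.1), no filter, median-ratio scaling, replicate numbers as a block, a shared spread, other models of the same block of sample numbers, and leaving out libraries. Scripts were tested on simulated data. The result for 1 gene of the epithelial list is not reported here.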

Additional observations from a re-analysis of the deposited data

Results flagged for a closer look

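In 18 of 115 groups of 5 libraries a single library lay apart by Dixon's criterion (critical value 0.71). Chance alone marks about 1 group in 20 only for normally distributed values. The FPKM of some groups are skewed, and groups of different genes share libraries, so the count is a description. In MC38, isotype replicate 5 was high for Krt8 (7.40 FPKM, the others 0.102 to 0.744), Krt18 (4.95) and Krt19 (7.83). In RENCA, muDX400 replicate 3 was high for Krt8 (507 FPKM, the others 45.5 to 104) and Krt18 (332, the others 33.8 to 70.0), and muDX400 replicate 4 for Krt19 (22.02, the others at most 5.76). Krt18 was 158 FPKM in LL2 isotype replicate 5 (128 to 135 in the others). Krt19 was 3.76 in B16F10 muDX400 replicate 5 and 9.97 in MB49 isotype replicate 3. Krt80 was low in EMT6 isotype replicate 5, at 4.02 FPKM against 6.19 to 6.79.

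The skin keratin sum marked RENCA muDX400 replicate 5 (45.0 FPKM), MBT2 isotype replicate 2 (25.0), MBT2 muDX400 replicate 1 (21.98), LL2 muDX400 replicate 5 (8.28) and EMT6 isotype replicate 3 (3.64). Krt14 marked the first 3 of these as well, at 22.1, 7.82 and 5.61 FPKM. The effect of muDX400 differed among the 11 models for Krt16 (adjusted p = 0.0359) and Krt80 (adjusted p = 0.00497), by limma's F-test.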

How the results depend on the processing

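For muDX400 against isotype within models, 1 keratin call became 9 with a spread shared over 110 libraries and 1 to 4 when a library number was left out. Among the 9 were Krt5 and Krt14 in RENCA. There muDX400 replicate 5, the library with skin keratins, held 22.2 and 22.1 FPKM and the other muDX400 libraries at most 1.54 and 1.17. For isotype against baseline, 17 calls became 5 in B16F10 and RENCA alone, by construction, and 7 to 17 when a library was left out. The labels state no pairing, and replicate numbers were not taken as pairs in the main fits. Same-numbered deviations had a median correlation per model of -0.232 (EMT6) to 0.152 (LL2), and a lowest one of -0.674 to -0.0156. That median was above the one of other-numbered libraries in some models and below it in others. The replicate block gave 11 calls for isotype against baseline, 9 of them shared, and 1 call for muDX400. Against the other 10 models, 102 calls became 171 with no filter. For the mean muDX400 effect, 1 call became 3 with pseudocount 0.1, 0 with no filter, 3 without the named skin libraries and 0 to 2 when a library number was left out. For effects differing among models, 2 calls became 1 to 4 when a number was left out. With the sum of non-keratin skin genes the rule named 0 libraries instead of 4, and 0 without Lgals7, a variant chosen after seeing the data; the cause was not tested. Against models of the same block of sample numbers, differences changed sign for Krt12 in CT26 (0.12), Krt80 in B16F10 (-0.35) and LL2 (0.0075), Krt17 in EMT6 (0.045), and Krt14 (0.033), Krt20 (0.17) and Krt7 (0.34) in RENCA. Pseudocount 0.1 did so for Krt12 in CT26 (0.25) and Krt20 in LL2 (0.044). Median-ratio scaling moved the median of all genes by over 0.1 in CT26 (0.13), RENCA (0.12) and TC1 (0.12) against baseline, CM3 (-0.13) for muDX400, and B16F10 (0.20), CM3 (0.15) and MBT2 (-0.13) between models.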
